A study of Mus musculus with 6 samples.

Results

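The transcripts of 10 growth factors or their partners were followed across the leukocytes of mouse soleus muscle: Igf1, Igfbp4, Gdf3, Tgfb1, Vegfa, Vegfb, Pdgfa, Pdgfb, Hbegf and Grn. They were picked by gene symbol from the feature list, and all 10 were found among its 31053 genes, each as a single row. The study asked how age changes the macrophages that enter muscle during recovery from disuse. Male C57BL/6 mice, with no transgene or drug in any group, were young (4 to 5 months) or old (20 to 22 months). They were studied as control, after 14 days of hindlimb unloading (HU), or after 4 days of reloading that followed HU (4-day reload). Viable CD45+ cells were sorted from solei that were pooled within a group, and each pool gave 1 single-cell library. Pools held 10 mice (young) and 20 (old) for control, 8 and 10 for HU, and 10 and 10 for reload. There are thus 6 libraries and 1 library per group, and no difference between ages within a treatment, or between treatments within an age, could be tested.

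Muscle that has been unloaded and is then loaded again draws in monocytes, which become macrophages beside those that already live in the tissue. Macrophages clear debris and release growth factors that act on satellite cells, the stem cells of muscle, and on fibroblasts and vessels. IGF-1 drives growth of muscle fibres and is held by binding proteins such as the product of Igfbp4. GDF3, a TGF-beta family ligand, promotes fusion of muscle precursors. TGF-beta 1, the platelet-derived growth factors (PDGF) and heparin-binding EGF-like growth factor act on fibroblasts and other stromal cells. VEGF-A makes new capillaries grow, VEGF-B is its paralog, and progranulin (Grn) is a secreted protein that also works in lysosomes.

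The libraries held 1675 to 3676 barcodes and 5782054 to 22749375 unique molecular identifiers (UMIs, 1 per captured RNA molecule). After filtering, 12224 cells remained, 1496 to 2567 a library, with a median of 2539 to 7883 UMIs per cell. Each cell was gated by its own marker genes. There were 4358 macrophages (35.7% of kept cells), which carried at least 4 of 11 macrophage markers with at least 2 of the C1q genes. Of these, 1580 had more of 8 markers of tissue-resident macrophages (such as Lyve1, Vsig4, Timd4) than of 8 markers of recruited ones (such as Ccr2, Ly6c2, Il1b) and are called resident, 2195 had more of the recruited markers and are called recruited, and 583 had as many of each and were left unsplit. A margin of at most 1 marker separated the 2 kinds in 1553 macrophages, the unsplit ones included. The recruited markers share Ly6c2, Plac8 and Chil3 with the monocyte list. Ptprc, which encodes CD45, was at 127 to 1188 CPM (UMIs of the gene over all UMIs of the class in that library, scaled to the common total the unit names) in the 9 leukocyte classes, at 1.38 to 6.72 CPM in endothelial cells and at 0 UMIs in fibroblasts and in muscle or mural cells, so those cells went against the CD45+ label. Both control libraries came from 1 sequencing run and the HU and reload libraries from another, so control cannot be told apart from run. The sample names carry 1 prefix for each treatment, shared by both ages, so reload and HU, although sequenced together, cannot be told apart from what that prefix marks. The control pair shared 41 cell barcodes, and other pairs shared 5 to 17.

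The promoters of Igfbp4, Vegfb and Vegfa are shown because Igfbp4 and Vegfb were higher in resident macrophages and Vegfa, the paralog of Vegfb, was higher in recruited ones. Each line gives the 250 bases before a RefSeq start on GRCm38.p6 (mm10), 5′ to 3′ on the gene's strand, with matches in capitals. Igfbp4 lies at chr11:99040994-99041243 on the plus strand, Vegfb at chr19:6987652-6987901 on the minus strand and Vegfa at chr17:46032378-46032627 on the minus strand.
Igfbp4: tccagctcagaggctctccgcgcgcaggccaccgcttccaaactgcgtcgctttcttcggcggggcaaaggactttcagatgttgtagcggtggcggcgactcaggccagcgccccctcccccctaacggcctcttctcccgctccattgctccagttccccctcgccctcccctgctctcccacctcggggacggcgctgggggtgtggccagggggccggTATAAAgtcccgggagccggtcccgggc
Vegfb: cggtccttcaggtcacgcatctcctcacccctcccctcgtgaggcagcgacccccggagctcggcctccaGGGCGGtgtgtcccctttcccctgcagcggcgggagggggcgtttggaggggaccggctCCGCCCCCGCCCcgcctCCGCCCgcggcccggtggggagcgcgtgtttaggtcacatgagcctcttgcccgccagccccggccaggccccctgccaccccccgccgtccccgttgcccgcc
Vegfa: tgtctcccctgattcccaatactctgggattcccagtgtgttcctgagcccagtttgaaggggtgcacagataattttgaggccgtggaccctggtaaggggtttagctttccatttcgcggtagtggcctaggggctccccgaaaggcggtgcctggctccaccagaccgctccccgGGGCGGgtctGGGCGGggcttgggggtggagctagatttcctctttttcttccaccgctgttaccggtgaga
The capitals mark TATAAA, the core of a TATA box, 28 bases before the start of Igfbp4, and GGGCGG, the core of a GC box, at 4 places in Vegfb (180, 121, 115 and 104 bases before the start) and 2 in Vegfa (72 and 62 bases before it). Some matches are on the opposite strand and read CCGCCC. In promoter windows of this length 12.4% of 32851 held TATAAA and 32.7% held GGGCGG on either strand. ACGTG, the core of hypoxia response elements, and TGCTGA, a half-site of the MAF factors, were searched too (16.6% and 16.1% of windows). So was TGANTCA (6.75%), a loose form of the AP-1 motif that allows any middle base. None of those letters occurred in the 3 windows shown. RefSeq lists another start for Vegfa, and its window (chr17:46025164-46025413, minus strand, not shown) held ACGTG 211 bases and GGGCGG 158 bases before that start. The window of Igf1 held TGANTCA 37 bases before its start, as TGAATCA with A at the open middle base. Annotated exons overlap both the Igf1 window and that other Vegfa window, so their matches may lie in transcribed sequence. Promoter entries matched 7 of the 10 members, and no capitals here are evidence of binding.

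Among the classes with at least 20 cells in at least 2 libraries, macrophages had the highest median level of Grn, and had rank 2 or 3 for Igf1, Igfbp4, Gdf3, Vegfb, Pdgfa, Pdgfb and Hbegf, rank 4 for Vegfa and rank 5 for Tgfb1. These medians cover different libraries, for NK cells control alone and for fibroblasts and endothelial cells HU alone. Ranked above macrophages, NK cells were higher in Pdgfb in 0 of 2 shared libraries, and monocytes in Gdf3 in 1 of 5. The sort held 4358 macrophages against 146 fibroblasts and 489 endothelial cells, so by number of molecules macrophages gave the largest part of every member: 75.9% of all Igf1 UMIs, 69.9% for Hbegf, 69.5% each for Gdf3 and Grn, 66.6% for Pdgfa, 61.2% for Igfbp4, 59.7% for Vegfa, 54.1% for Vegfb, 52.5% for Pdgfb and 40.7% for Tgfb1. Sorted cells do not show the makeup of the muscle, so these are shares of the sort, summed over libraries of unequal depth. In single libraries another class could lead: in young HU endothelial cells gave 77.2% of Pdgfb UMIs and macrophages 8.77%.

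Igf1 (chr10:87858265-87937042, plus strand) was a gene of macrophages and fibroblasts. Macrophages held 81.8 and 77.4 CPM in control (young first, here and below), 225 and 139.9 after HU, and 35.8 and 36.0 after 4-day reload. The HU libraries were the highest and the reload libraries the lowest, at either age. Fibroblasts, with 20 or more cells in the HU libraries alone, held 230 and 272 CPM there, above the macrophages of the same library in both. Next came endothelial cells with a median of 2.76 CPM and monocytes with 1.29, which did not differ beyond their spread. Neutrophils and NK cells had 0 Igf1 UMIs. A UMI of Igf1 was found in 24.4% of macrophages (exact binomial 95% interval 23.2 to 25.7) against 1.43% of T cells (0.741 to 2.49), where library medians were 3181 to 8021 and 2514.5 to 4040 UMIs a cell. At 2000 UMIs a cell the shares were 12.98% of 3791 macrophages and 0.89% of 562 T cells.

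Igfbp4 (chr11:99041244-99054392, plus strand) reached 1610 and 1946 CPM in fibroblasts of the HU libraries. Macrophages held 158 and 235 CPM in control, 442 and 245 after HU, and 110.1 and 134 after reload. The reload libraries were again the lowest, and young HU stood above the rest. Endothelial cells (median 99.2 CPM), ILC2 (81.1) and T cells (78.7) followed without clear order, and monocytes, at 5.61 CPM, were lower than T cells in 5 of 5 libraries.

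Gdf3 (chr6:122605403-122610087, minus strand) was seen in the monocyte and macrophage lineage only among the gated classes. Monocytes held 2.84 to 21.1 CPM (median 11.2) in 5 libraries and macrophages 0 to 17.8 CPM (median 9.50), and the pair did not differ beyond their spread. Neutrophils, dendritic cells, T cells, NK cells, B cells, ILC2, endothelial cells and fibroblasts had 0 UMIs. In macrophages Gdf3 was at 4.41 and 13.2 CPM in control, 5.83 and 0 after HU, and 13.6 and 17.8 after reload. The 0 in old HU rests on 2637697 UMIs, where 3 counts would be 1.14 CPM. A UMI was found in 3.92% of macrophages (3.37 to 4.54) and 0 of 839 T cells.

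Tgfb1 (chr7:25687002-25705077, plus strand) was broad. ILC2 (median 563 CPM), B cells (536), NK cells (523) and monocytes (504) overlapped one another, and monocytes were above macrophages in 5 of 5 libraries. Macrophages held 267 and 413 CPM in control, 318 and 331 after HU, and 354 and 345 after reload, and were above T cells in 6 of 6 libraries. The lowest and the highest macrophage values were thus both control libraries.

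Vegfa (chr17:46016993-46032369, minus strand) had its highest class median, 52.2 CPM, in NK cells, which reached 20 cells in the control libraries alone, at 71.9 CPM in young and 32.5 in old, on 20 and 16 UMIs. Neutrophils had a lower median (33.6 CPM) but ranged from 5.63 to 110.5 CPM with 2 to 15 UMIs a library, so the order of these classes rests on few molecules. Mast cells or basophils, a class of 88 cells and mostly under 20 a library, had 23 Vegfa UMIs in 15.9% of cells (8.98 to 25.2). Macrophages held 20.1 and 5.79 CPM in control, 0.486 and 5.31 after HU, and 41.2 and 39.6 after reload. The reload libraries were the highest and close to each other, and young HU had 1 Vegfa UMI in 579 macrophages. Vegfb (chr19:6982473-6987651, minus strand) ranged less, from 6.46 to 12.2 CPM in macrophages (median 9.92), with fibroblasts at 20.4 and 24.8.

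Pdgfa (chr5:138976014-138997370, minus strand) was at 70.2 and 30.5 CPM in control macrophages, 12.2 and 15.9 after HU, and 22.8 and 22.2 after reload. Young control stood apart, and the young HU value was the lowest. The 21 muscle or mural cells of young HU held 262 CPM on 20 UMIs. Pdgfb (chr15:79995874-80014977, minus strand) was led by endothelial cells at 121 and 40.3 CPM after HU. Macrophages held 30.8 and 29.5 CPM in control, 4.86 and 8.34 after HU, and 12.6 and 18.7 after reload. Here the control libraries were the highest and the HU libraries the lowest.

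Hbegf (chr18:36504927-36515805, minus strand) was at 37.2 and 72.1 CPM in control macrophages, 17.5 and 67.9 after HU, and 51.7 and 73.9 after reload. In all 3 treatments the old library was above the young one. Endothelial cells (26.2 and 150.0 CPM) and fibroblasts (49.5 and 102) of the HU libraries overlapped each other, and ILC2 were below macrophages in 6 of 6 libraries. Grn (chr11:102430315-102437048, plus strand) was at 619 and 742 CPM in control macrophages, 1026 and 699 after HU, and 1145 and 953 after reload. Monocytes, at a median of 421 CPM, were lower in 5 of 5 libraries, and T cells held a median of 23.2 CPM.

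**Figure D1:**
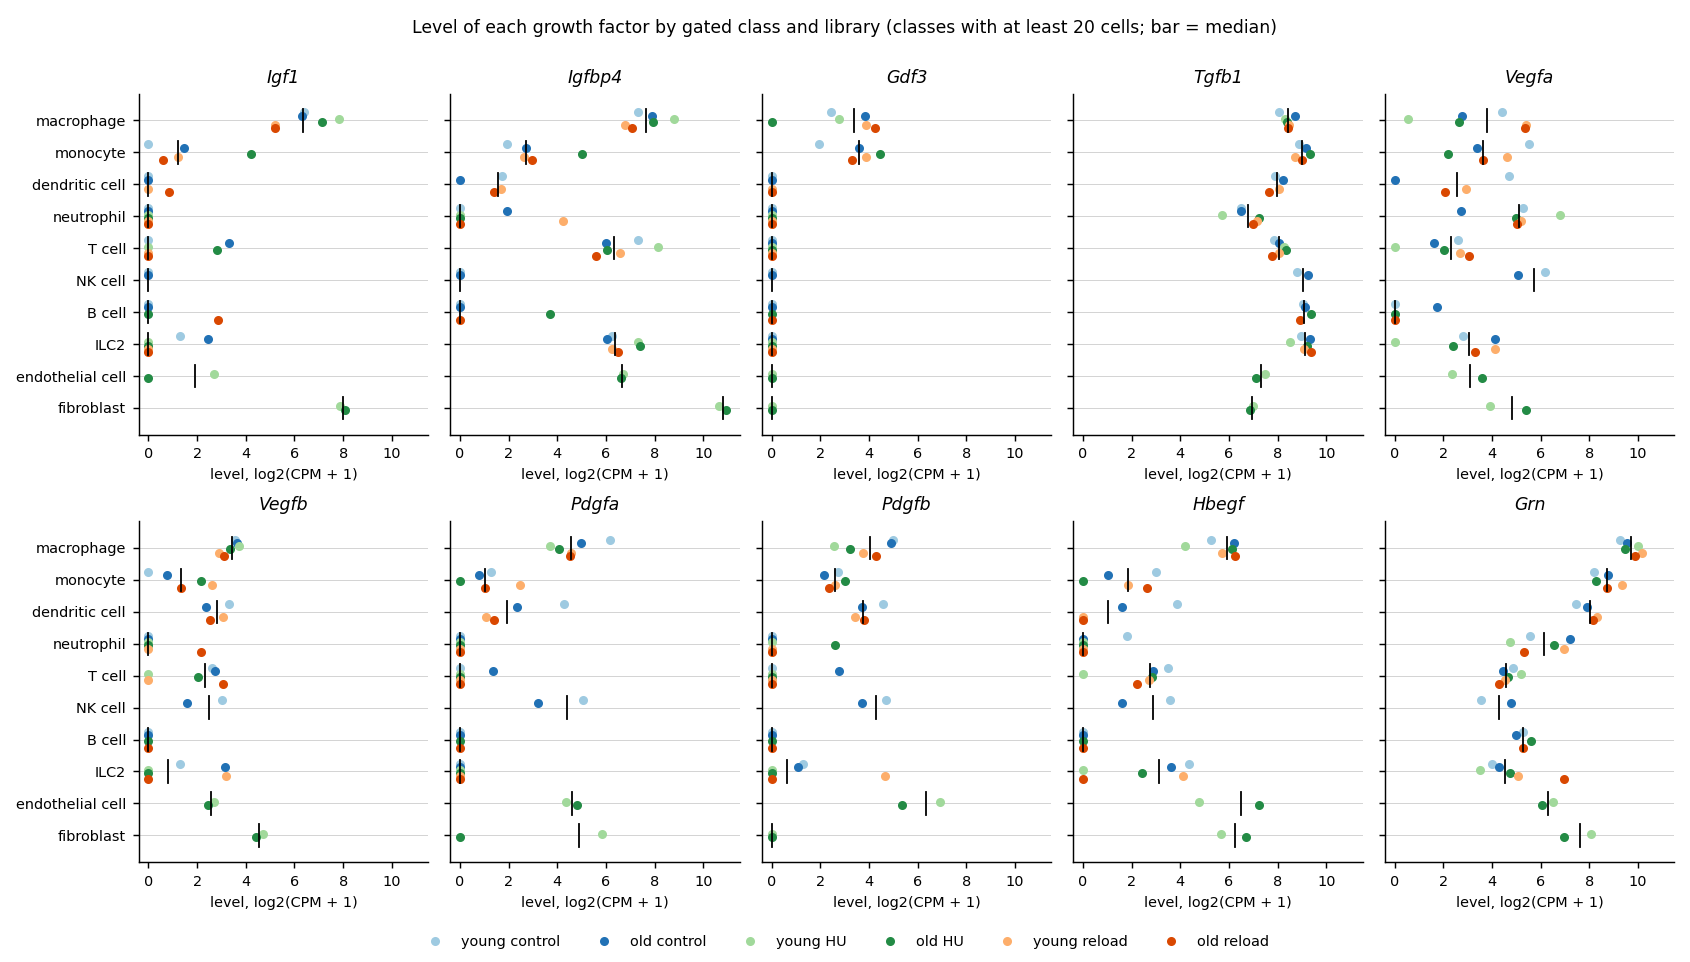
Level of each member, as log2(CPM + 1), in each gated class with at least 20 cells, where a point is a library and a bar the median over libraries. Igf1 and Igfbp4 stand high in macrophages and fibroblasts, Gdf3 in macrophages and monocytes, Grn is led by macrophages at a median of 847 CPM, and Tgfb1 is spread over all classes.

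Macrophages were next compared with other leukocyte classes on the summed UMIs of each class in each library, with library as a block. Against monocytes, from which recruited macrophages derive, 8 of 10 members passed an adjusted p of 0.05, 7 higher and 1 lower in macrophages, where 36.4% of all genes tested did (19.0% higher and 17.4% lower). Igf1 was higher in macrophages by 5.01 on the log2 scale (SE 0.35, edgeR adjusted p = 2.6e-06), Igfbp4 by 4.58, Hbegf by 4.33 and Pdgfa by 4.10. Pdgfb (2.17), Vegfb (2.09) and Grn (0.99) were higher by less, and Tgfb1 was lower (log2 -0.61, SE 0.12, edgeR adjusted p = 0.0027). Gdf3 (log2 0.13, SE 0.51) and Vegfa (0.34, SE 0.39) did not pass. Vegfb was at 1.54 with an edgeR adjusted p of 0.063 without the old control library. Young HU, with 10 monocytes, was not part of this fit.

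Against T cells 10 members were called higher in macrophages, where 51.9% of all genes passed either way, 31.4% higher and 20.5% lower. The range was 0.62 for Tgfb1 to 7.94 for Gdf3 on the log2 scale, and the last has no T cell UMI, so it passed the filter on low counts through macrophages alone, its direction was fixed by that, and its size depends on the fit's prior. DESeq2 called 4595 genes and 8 members, without Gdf3 (adjusted p = 0.33) and Vegfb (0.052). Vegfb was not called without old control either (1.37), nor Vegfa in thinned cells (1.33). Against dendritic cells, in the control and reload libraries, 8 members were called higher, where 44.1% of genes passed either way, 22.9% higher and 21.2% lower. Gdf3 was 1 of them with no dendritic cell UMI, so its direction was fixed in the same way. The others included Igf1 (log2 7.45), Igfbp4 (6.08), Hbegf (5.13) and Vegfa (2.16). Pdgfb (0.48, SE 0.21) and Vegfb (0.20, SE 0.32) did not pass. Tgfb1, at 0.37, lost its call without old control, without young reload or without old reload (0.27 to 0.39), and Vegfa lost it without young reload (1.69).

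Resident and recruited macrophages differed in 8 of the 10 members, where 19.8% of 8377 genes tested passed (9.65% higher and 10.1% lower in resident cells). Igf1, Igfbp4, Vegfb, Hbegf and Grn were higher in resident macrophages, and Gdf3, Vegfa and Tgfb1 were higher in recruited ones. Pdgfa and Pdgfb did not pass. The values of the 6 libraries did not overlap between kinds for Igf1, Igfbp4 and Vegfb, 3 of 10 members, where 3.87% of genes with at least 50 UMIs did not overlap. For Vegfb this rests on few molecules, with 1 recruited UMI in young HU and 1 in old HU. Its counting intervals between kinds held 0 in young control, old control and young HU. The median log2 difference was 0.39 over the members and 0.01 over all genes. With total UMIs in place of TMM factors the split of all calls moved from 808 higher and 848 lower to 1213 and 524, the median of all genes moved to 0.14, and the 10 members kept their directions, with Tgfb1 no longer called (log2 -0.27, edgeR adjusted p = 0.060).

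Resident macrophages held 115, 155 and 288 CPM of Igf1 (lowest, median and highest library) and recruited ones 14.6, 35.1 and 64.8. Every resident value was above every recruited value. The difference was 2.10 on the log2 scale (SE 0.27, edgeR adjusted p = 3.6e-05). The ratio was smallest in young control, at 115 against 64.4 CPM, and widest in old reload, at 162 against 14.6. With a UMI in 45.9% of resident and 10.6% of recruited cells (28.4% and 3.76% at 2000 UMIs a cell), the share of cells followed the level.

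Igfbp4 was at 242, 347 and 572 CPM in resident cells and 37.4, 81.6 and 88.7 in recruited cells. Here too the kinds did not overlap, by 1.99 on the log2 scale (SE 0.17, edgeR adjusted p = 6.1e-07). Recruited values lay within 74.8 to 88.7 CPM in all libraries but young HU, where 7 UMIs in 43 cells gave 37.4 CPM.

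Vegfa went the other way and most of it lay in the reload libraries. Recruited macrophages held 47.1 and 49.8 CPM there, and resident cells of the same libraries 1.78 and 2.63 CPM on 2 and 3 UMIs. In old control the values were 10.7 against 1.14 CPM (9 against 1 UMIs) and in old HU 10.2 against 3.71 (8 against 6 UMIs). The counting interval between kinds held 0 in old HU, and young HU had 0 UMIs in either kind. Young control did not share this order, at 23.9 CPM in resident and 22.3 in recruited cells. The fitted difference was -2.14 (SE 0.48, edgeR adjusted p = 0.0049), and with Ccr2 set against Lyve1 or Vsig4 as the split it was -1.13 and not called (adjusted p = 0.21). Its paralog Vegfb was at 11.9, 14.6 and 21.9 CPM in resident and 1.27, 5.01 and 10.3 in recruited cells (log2 1.40, SE 0.31, edgeR adjusted p = 0.0041). Without old reload Vegfb was at 1.12, with an edgeR adjusted p of 0.051.

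Gdf3 was at 0, 2.94 and 4.57 CPM in resident and 0, 15.2 and 32.0 in recruited cells, and was higher in recruited cells in 5 of 6 libraries. Old HU, with 0 UMIs in either kind, was the sixth. The highest recruited value, in young HU, rests on 6 UMIs in 2 of 43 cells. In young control and old control the counting intervals between kinds held 0. Of 365 macrophage UMIs, 144 and 140 came from recruited cells of young and old reload. The fitted difference was -2.57 (SE 0.38, edgeR adjusted p = 0.00016). In cells thinned to 2000 UMIs, Gdf3 and Vegfb did not pass the filter on low counts and were not tested.

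Hbegf was at 18.5, 85.6 and 115 CPM in resident and 10.7, 30.8 and 64.9 in recruited cells. The kinds overlapped across libraries, but resident cells were higher in 6 of 6, by 1.0 on the log2 scale (SE 0.17, edgeR adjusted p = 0.00057). Grn was higher in resident cells in 6 of 6 libraries as well, at 729, 1052 and 1621 against 326, 573 and 1058 CPM (log2 0.65, SE 0.14, edgeR adjusted p = 0.0036). Tgfb1 was slightly lower in resident cells, at 270.3, 297 and 363 against 271, 360.1 and 469 CPM (log2 -0.39, SE 0.10, edgeR adjusted p = 0.0082), and the pair in young control differed by less than 1 CPM. Pdgfa (log2 -0.18, SE 0.16, edgeR adjusted p = 0.48) and Pdgfb (0.14, SE 0.22, 0.72) were within the spread between libraries.

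**Figure D2:**
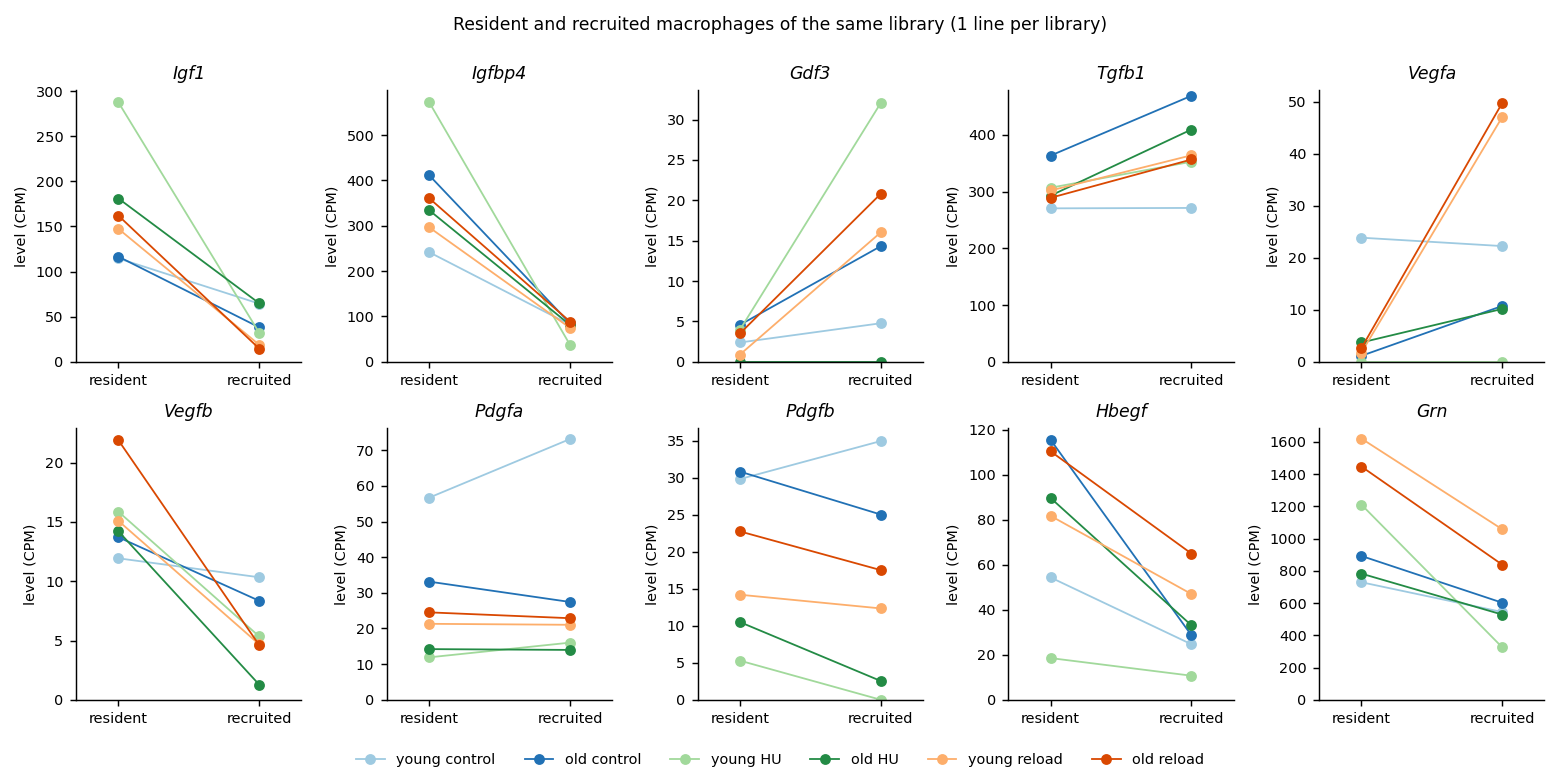
Level in CPM of each member in resident (left) and recruited (right) macrophages, with a line for each of the 6 libraries and a linear axis from 0. Lines for Igf1, Igfbp4, Vegfb, Hbegf and Grn fall from left to right in all libraries, those for Vegfa climb steeply in both reload libraries to 47.1 and 49.8 CPM, and young control is flat for Vegfa and Tgfb1.

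Genes of each member's pathway were read in the same comparison. In the IGF list 5 of 14 genes were tested, with 2 higher in resident cells and 1 lower. Irs2, an adaptor of insulin and IGF receptors, was higher by 0.83 (SE 0.16) and the insulin receptor Insr by 0.96 (SE 0.25), and Igfbp6, another binding protein, was lower (-1.68, SE 0.31). Igf1r, the receptor, was at 0.39 (SE 0.20) and Igf2r, which clears IGF-2, at -1.69 (SE 0.62), and neither passed. In the GDF3 and activin list 7 of 13 genes were tested. Bmp2, a bone morphogenetic protein, was higher in resident cells by 2.96 (SE 0.26), and Pparg, the nuclear receptor known to drive Gdf3 in macrophages, was lower (-1.93, SE 0.35), the same direction as Gdf3. Gdf15 (-0.09), Smad2 (-0.18) and Rxra (0.59), the partner of PPAR-gamma, did not pass.

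In the PDGF list 4 of 8 genes were tested and 2 were higher in resident cells. Pdgfc, another PDGF ligand, was higher by 2.59 (SE 0.33), with 5.37 to 23.1 CPM in resident and 0 to 2.82 in recruited cells, and Nrp1, a co-receptor of VEGF and PDGF, by 1.12 (SE 0.14). Furin, which processes growth factor precursors, was at -0.20 and Plau, urokinase, at -0.21, and neither passed. The receptor Pdgfra had 0 UMIs in macrophages. The VEGF list had 2 of 8 genes tested, Nrp1 and Nrp2 (0.61, SE 0.13), and both were higher in resident cells. Pgf, placental growth factor, and the receptor Flt1 had 153 and 47 UMIs and were not tested.

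In the TGF-beta list 12 of 18 genes were tested, with 2 higher and 5 lower in resident cells and a median of -0.46. Thbs1, thrombospondin 1, which activates latent TGF-beta, was the lowest (-3.93, SE 0.31), at 0.661 to 88.8 CPM in resident and 10.7 to 1111 in recruited cells. Nrros, which anchors latent TGF-beta 1 on myeloid cells (-0.44, SE 0.11), Skil (-0.71), Itgav (-0.87) and Tgfbr1 (-0.48) were lower too, and the receptor Tgfbr2 (1.04, SE 0.15) and the repressor Ski (0.66) were higher. Tgfbi, a TGF-beta target, was at -0.09 and did not pass. In the EGF list 7 of 13 genes were tested, 1 higher and 4 lower. Egfr, the receptor of Hbegf, was higher in resident cells (3.68, SE 0.34), at 12.4 to 59.5 CPM against 0 to 7.63. The ligands Areg (-0.82) and Nrg1 (-1.44), the sheddase Adam17 (-0.35) and Cd9, which binds the Hbegf precursor (-0.70, SE 0.18), were lower. The other sheddase, Adam10, was at -0.01 and did not pass.

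The progranulin list had 13 of 14 genes tested, with 0 higher and 6 lower in resident cells, while Grn itself was higher there. Psap, prosaposin, which carries progranulin to lysosomes, was lower (-0.37, SE 0.10), as were Mmp12 (-2.32) and Mmp14 (-2.07), proteases that can cut progranulin, Slpi (-1.90), Gpnmb (-1.79) and Tnfrsf1b (-0.88). Lamp1 (0.23), Ctsd (0.08) and Ctsl (0.26), all lysosomal, did not pass. Of other macrophage repair signals 9 of 14 were tested, with Mmp9 (3.35, SE 0.46) and Gas6 (2.49, SE 0.15) higher and Arg1 (-1.51), Il10 (-1.44) and Osm (-0.65) lower in resident cells, and Metrnl (-0.26) and Retnla (0.60) not called. Of 11 genes of the hypoxia list, which holds targets and Hif1a, the gene of the factor itself, 10 were tested. Lower in resident cells, as Vegfa was, were 4: Slc2a1, the glucose transporter GLUT1 (-1.49, SE 0.18), Ndrg1 (-1.13), Ero1l (-0.66) and Hif1a (-0.64). P4ha1 was at -0.11 and Adm at 0.01, and neither passed.

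Beside these values, the summed level of 9 monocyte markers was 56.1 to 116 CPM in resident and 155 to 1300 in recruited cells. Ly6c2, Plac8 and Chil3 are among these and among the recruited markers, so the direction of that sum was partly built in by the split. The summed level of 9 T cell markers was at most 12.97 CPM, and that of 7 fibroblast markers, which matter for Igf1 and Igfbp4, was at most 14.5 CPM in resident and 16.0 in recruited cells. Markers of muscle or mural cells (7 genes) summed to 19.7 to 105.1 CPM in resident and 9.54 to 34.3 in recruited cells, with 105.1 against 21.4 in young HU, and B cell markers (7) to 94.3 to 185.6 against 49.3 to 112.2. Both sums were higher in resident cells in 6 of 6 libraries. Endothelial markers (7) summed to 19.4 to 80.6 against 16.9 to 129.6 CPM. The sum of 13 dissociation and heat shock genes, such as Fos and Hspa1a, was 6332 to 15389 CPM in resident and 4926 to 16615 in recruited cells, higher in resident cells in 5 of 6 libraries. The part of these genes in the differences was not tested. Recruited cells held more UMIs (library medians 3691 to 8608.5 against 3098 to 6606 in resident cells). The part of depth in these differences was not tested beyond thinning.

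Reload was compared with HU over the 6 macrophage sums with age as a block, and 3 of 10 members passed, where 9.18% of 9630 genes did (4.41% higher and 4.77% lower). Igf1 fell by 2.28 on the log2 scale (SE 0.23, edgeR adjusted p = 0.017) and Igfbp4 fell by 1.45 (SE 0.32, 0.046), while Vegfa rose by 3.67 (SE 0.74, 0.040). Gdf3 (2.59, SE 0.90), Pdgfb (1.23, SE 0.32), Hbegf (0.76) and Pdgfa (0.67) were positive, Vegfb was at -0.56, and Grn (0.33) and Tgfb1 (0.14) were small, none past the threshold. This fit leaves 2 residual degrees of freedom, and its count of all genes called ran from 28 to 2014 over the alternatives (884 here). Without old control 0 of the 10 members passed and without young control Igf1 alone. Over the 6 fits with a library left out 0 to 5 members passed. None of these counts was set against the share of genes called in its own fit. The value of Igfbp4 was -0.86 without young HU, and with the mitochondrial limit at 20% it was -1.38 and not called (edgeR adjusted p = 0.051). Igf1 was at -2.65 in young and -1.96 in old mice, and the exact 95% counting interval lay below 0 at each (-2.85 to -2.45 in young, -2.18 to -1.74 in old).

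The mix of macrophages moved with these values. Of macrophages, 7.43% (young) and 21.9% (old) were recruited after HU and 76.6% and 70.0% after reload, while resident cells went from 74.8% and 68.2% to 11.98% and 17.99%. Other sums moved too. The dissociation and heat shock genes went from 11659 and 9784 CPM after HU to 5221 and 5564 at reload, endothelial markers from 74.9 and 62.6 to 18.9 and 29.1, muscle or mural markers from 88.5 and 37.2 to 23.4 and 23.8, and monocyte markers from 89.4 and 275 to 881 and 402. The dissociation genes were lower at reload within each kind as well, at 6332 and 7756 against 10824 and 10655 CPM in resident and 4926 and 5121 against 16615 and 8605 in recruited cells. The part of the mix and of these genes in the change of the members was not tested. Recruited cells gave 65.9% and 71.7% of all Vegfa UMIs of the young and old reload libraries and resident cells 0.312% and 0.642%, whereas resident cells gave 31.3% and 49.7% of all Igf1 UMIs at reload from 11.98% and 17.99% of macrophages.

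Within each kind no member passed, where 0.462% of genes did in recruited (0.224% higher, 0.238% lower) and 2.04% in resident cells (1.21% higher, 0.832% lower). Vegfb in recruited cells, and Gdf3 and Vegfa in resident cells, did not pass the filter on low counts. By edgeR 5 members in recruited and 3 in resident cells had an unadjusted p under 0.05, where 1465 of 7143 and 1636 of 8171 genes had, and DESeq2 called 1 (Igf1) and 0 members, with 179 and 94 genes. In recruited cells Igf1 was at -1.92 (SE 0.40, edgeR adjusted p = 0.065), Vegfa at 2.44 (SE 0.60, 0.084), Grn at 1.04 (SE 0.28), Pdgfb at 2.75 (SE 0.84) and Hbegf at 1.03 (SE 0.35), and Igfbp4, at 0.23, was near 0. Leaving out a library changed these calls, and 0 to 4 members passed over the 6 such fits. In resident cells Igf1 was at -0.66 (SE 0.25), Igfbp4 at -0.56 (SE 0.32), Grn at 0.55 (SE 0.27), Pdgfb at 1.11 (SE 0.41) and Hbegf at 0.97 (SE 0.41). There too 0 to 4 members passed over the 6 fits with a library left out. Young HU had 43 recruited cells with 187237 UMIs, which limits the recruited values. Pdgfb had 0 and 2 recruited UMIs in young and old HU, and its young counting interval held 0. Counts of all genes called moved too, from 0 to 674 in recruited and 9 to 1259 in resident cells over the alternatives. The member counts with a library left out were not set against the share of genes in the same fit.

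The test of the difference between kinds, recruited minus resident, called 0 members, where 0.167% of genes passed (0.131% higher, 0.0358% lower). Over the alternatives 3 to 129 genes were called. By edgeR 2 members had an unadjusted p under 0.05, Igf1 (-1.27, SE 0.39, adjusted p = 0.34) and Vegfa (3.90, SE 1.23, 0.36), where 667 of 8377 genes had, and DESeq2 called 0 members and 3 genes. Vegfa had 0 and 6 resident UMIs after HU (young first), 2 and 3 at reload, and 0 and 8 recruited UMIs after HU. In resident cells alone it had not passed the filter on low counts, so its size here rests on few molecules and on the fit's prior. Over the 6 fits with a library left out 0 to 2 members passed, and Igf1 was at -2.02 without young HU. A difference in response between resident and recruited macrophages was not detectable for the members at this depth and number of libraries. On simulated data this test recovered 9.0% of genes changed by 1 on the log2 scale and 68.0% of those changed by 2.

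Values of single libraries add what the fits cannot test. In resident cells Igf1 went from 288 CPM in young HU to 147 in young reload (log2 -0.96, counting interval -1.23 to -0.70), and from 181 in old HU to 162 in old reload (-0.16, -0.43 to 0.11). Hbegf in resident cells went from 18.5 to 81.7 CPM in young mice (2.14, 1.52 to 2.81) and from 89.6 to 110.3 in old mice (0.30, -0.06 to 0.65). Grn in resident cells went from 1211 to 1621 CPM in young and from 783 to 1447 in old mice. In recruited cells Vegfa went from 10.2 to 49.8 CPM in old mice (2.29, 1.3 to 3.51). Its young value went from 0 UMIs, where 3 counts would be 16.0 CPM, to 47.1 CPM, which is at least 2.94-fold higher. Recruited Igf1 went from 32.0 CPM, on 6 UMIs, to 18.8 in young mice (-0.77, -1.92 to 0.70). In old mice it went from 64.8 to 14.6 CPM (-2.15, -2.66 to -1.64).

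**Figure D3:**
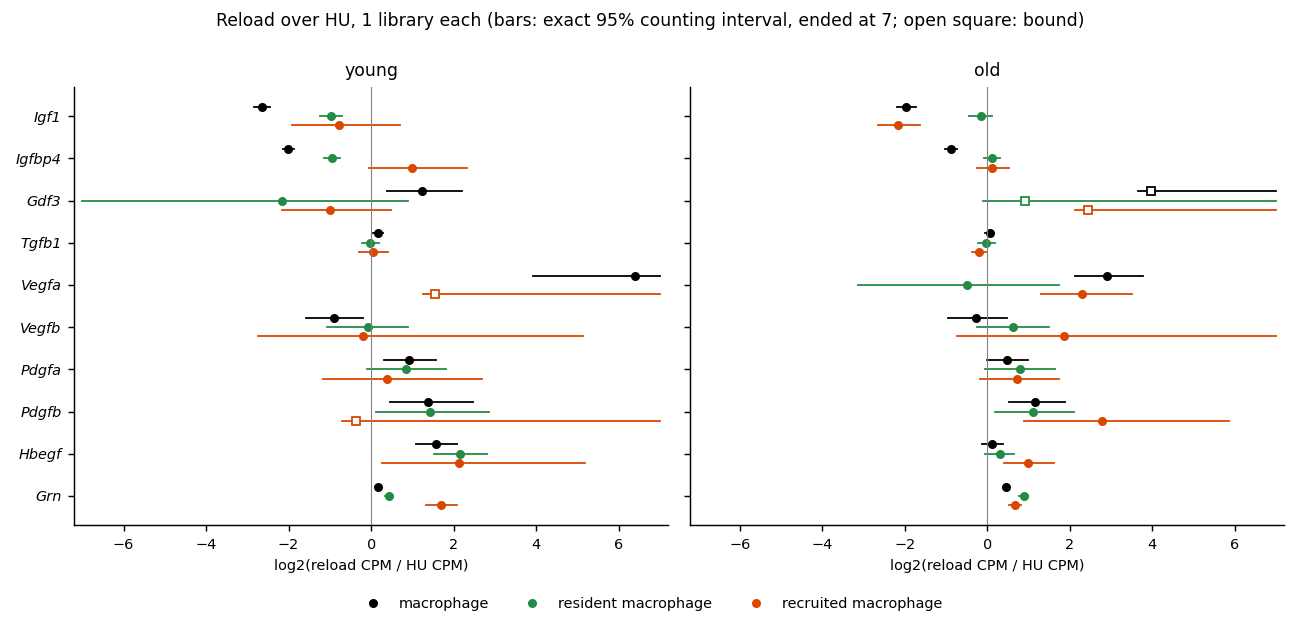
Log2 ratio of reload to HU for each member in young (left) and old (right) mice, for all macrophages and for each kind, with exact 95% counting intervals and open squares for bounds against a library at 0. Igf1 of all macrophages lies at -2.65 and -1.96 with the resident values nearer to 0, and Vegfa of all macrophages lies at 6.40 and 2.90.

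In the pathway lists of the summed macrophages, reload against HU called 4 of 13 tested genes of the progranulin list higher and 0 lower, among them Ctsd (1.26) and Ctsl (0.95), lysosomal cathepsins. Of the other repair signals 4 of 11 were higher, Il10 (4.58), Osm (3.58), Metrnl (1.78) and Arg1 (6.54). Igfbp6 rose by 4.33 while Igf1 and Igfbp4 fell, and Egfr fell by 3.78 as Nrg1 (4.74) and Adam17 (1.32) rose. Slc2a1 (1.96) and Ndrg1 (2.73) rose with Vegfa, 2 of 10 tested genes of the hypoxia list, and Hif1a (1.04) did not pass. These calls come from the fit that leaves 2 degrees of freedom and from sums whose mix of kinds moved as given above.

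The question of age was put to the 6 macrophage sums with treatment as a block, and no member passed, as no gene of 9630 did (0.0% called). By edgeR 397 genes and 1 member, Hbegf, had an unadjusted p under 0.05, and DESeq2 called 5 genes and 0 members. Hbegf was at 1.09 (SE 0.30, edgeR adjusted p = 0.90) and was higher in old macrophages in 3 of 3 treatments. The other members lay between -0.33 for Pdgfa and 0.36 for Pdgfb. In resident cells Hbegf was at 1.24 (SE 0.33, edgeR adjusted p = 0.43) and in recruited cells at 0.48 (SE 0.25, adjusted p = 1.0), and 0 members were called in either (0.0% of genes called in both). There edgeR gave 1 and 0 members, and 740 and 126 genes, with an unadjusted p under 0.05, and DESeq2 called 0 members in either, with 9 and 0 genes. Without the filter on low counts Hbegf passed in resident cells (1.22, edgeR adjusted p = 0.00061). The alternatives called 0 to 155 genes in resident cells.

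Within a treatment the ages were set side by side, with exact 95% counting intervals that hold no variation between mice or between cells. In control, Hbegf (log2 old over young 0.96, 0.60 to 1.31), Tgfb1 (0.63, 0.49 to 0.77), Igfbp4 (0.58, 0.40 to 0.76), Gdf3 (1.58, 0.62 to 2.58) and Grn (0.26, 0.17 to 0.36) had intervals above 0. Pdgfa (-1.20, -1.64 to -0.78) and Vegfa (-1.80, -2.86 to -0.87) had intervals below it. Thus 7 of 10 members had intervals away from 0, where 14.2% of genes with at least 20 UMIs were above and 8.5% below. Igf1 was at -0.08 (-0.37 to 0.21). Gdf3 rests on 25 UMIs in 10 of 301 old and 16 UMIs in 10 of 451 young cells. The intervals of these shares of cells overlapped (1.60 to 6.02% and 1.07 to 4.04%). In thinned cells Hbegf was at 0.38. Resident cells had 4 members above 0 and 2 below, where 9.9% and 8.32% of genes were, and recruited cells 2 and 2, where 13.8% and 7.93% were. Young control macrophages also held the most of the 13 dissociation and heat shock genes, at a sum of 13096 CPM against 8058 in old control and 5221 to 11659 in the other libraries, and the part of this in Pdgfa and Vegfa was not tested.

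After HU, Hbegf was 3.88-fold higher in the old library (log2 1.96, 1.43 to 2.51) and Vegfa was higher on 14 UMIs against 1 (3.45, 0.73 to 8.85). Igf1 (-0.68, -0.88 to -0.48), Igfbp4 (-0.85, -0.997 to -0.70) and Grn (-0.55, -0.64 to -0.46) were lower, and Gdf3, with 0 UMIs in old and 12 in young, was at least 5.13-fold lower. This gave 2 members above and 4 below, where 14.1% of genes were above and 22.5% below. The resident cells of the same libraries held 181 against 288 CPM of Igf1 and 334 against 572 of Igfbp4, in the same direction. Before filtering, 27.5% of young HU barcodes exceeded the mitochondrial limit against 9.60% in old HU, and Hbegf was at 1.83 with the limit at 5% and 2.02 with it at 20%. Resident cells had 2 members above 0 and 4 below, where 13.1% and 21.5% of genes were, and recruited cells had 1 and 1, where 9.93% and 6.27% were.

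At 4-day reload the intervals of 5 members held 0 and those of 5 did not. Igf1 was at 36.0 and 35.8 CPM in old and young (log2 0.01, -0.21 to 0.22), Vegfa at 39.6 and 41.2 (-0.06, -0.26 to 0.15), Tgfb1 at 345 and 354 (-0.04, -0.11 to 0.03) and Pdgfa at 22.2 and 22.8 (-0.04, -0.32 to 0.23). Hbegf (0.51, 0.35 to 0.68), Pdgfb (0.57, 0.24 to 0.91), Gdf3 (0.39, 0.06 to 0.72) and Igfbp4 (0.28, 0.16 to 0.40) were higher in old, and Grn was lower (-0.27, -0.30 to -0.23). There were 4 members above and 1 below, where 15.6% and 15.5% of genes were. Recruited cells alone gave the same order for these 5 members, with Hbegf at 0.47 (0.27 to 0.66) and Grn at -0.34 (-0.38 to -0.29). Recruited Igf1, at 14.6 against 18.8 CPM, was lower in old (-0.37, -0.74 to -0.00). Recruited cells had 4 members above 0 and 2 below, where 12.9% and 14.8% of genes were, and resident cells 2 and 1, where 11.3% and 9.91% were. With cells thinned to 2000 UMIs the value of Gdf3 turned to -0.15 and that of Igf1 was 0.58, while Igf1 was at -0.50 with the mitochondrial limit at 5%, so the order of the ages for Igf1 at reload was not settled. A Gdf3 UMI was found in 6.17% of old and 5.72% of young reload macrophages, with overlapping intervals (4.86 to 7.71 and 4.52 to 7.13). The share of barcodes over the 10% limit was 33.3% in young and 17.4% in old reload.

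**Figure D4:**
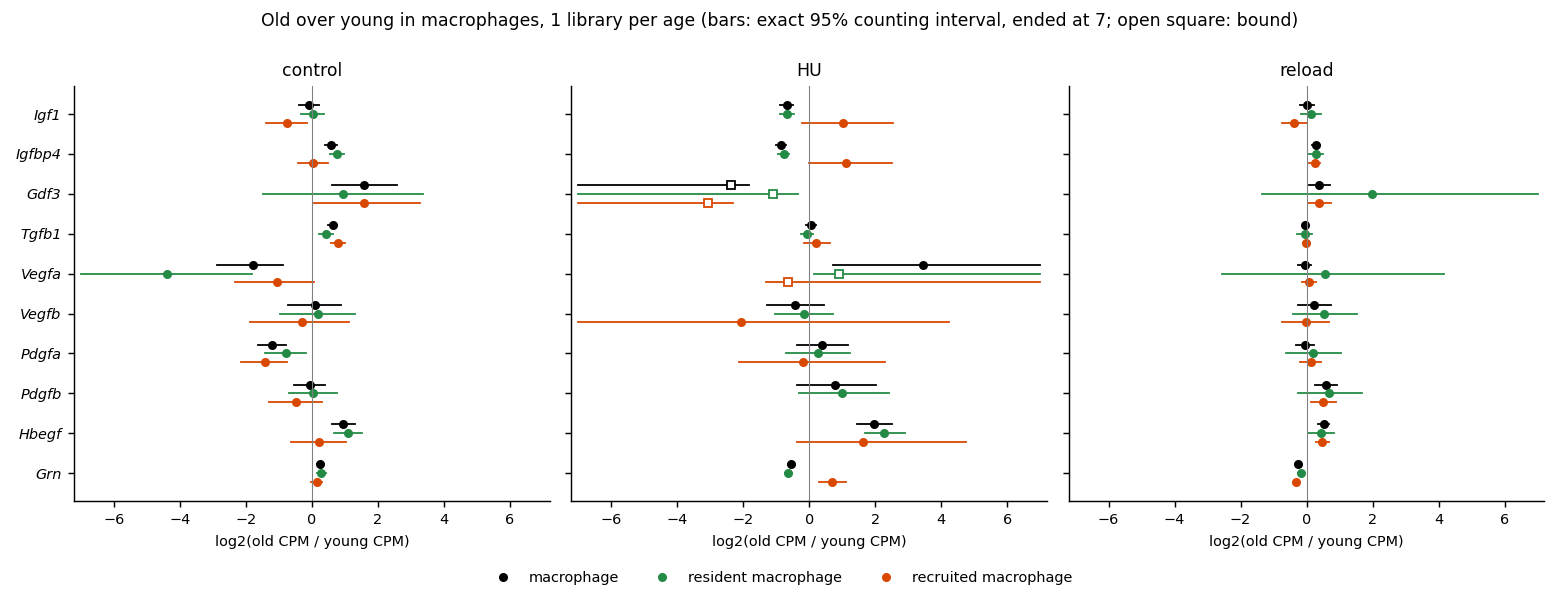
Log2 ratio of old to young for each member in control, HU and reload, for all macrophages and for each kind, where each ratio sets 1 library against 1 library and bars are exact 95% counting intervals. Hbegf of all macrophages lies above 0 in every treatment (0.96, 1.96 and 0.51), and Igf1 and Vegfa lie at 0.01 and -0.06 at reload.

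Over the 45 sums of a class in a library, the genes whose level followed each member most closely were read from Pearson's r of log2(CPM + 1) among 12504 genes, as a description, since sums of a library share its depth and sums of a class share its cells. Igf1 was followed by Pdgfc (0.90), Adamtsl5 (0.89) and Ang (0.88), Igfbp4 by Sept8 (0.85), Coro2b and Rnase4 (0.80 and 0.78), and Gdf3 by Tnfsf13os, Siglec1 and Tfec (0.92, 0.91 and 0.90). Grn was followed by Pid1, Psap and Ctsb (0.89, 0.88 and 0.88), and Hbegf by Slc6a8 (0.85), Tspan4 (0.82) and Gkap1 (0.82). Pdgfa went with Tnfsfm13 (0.88), Slc6a8 and Mamdc2 (0.78 each), Pdgfb with Soga1, Rtl8a and Dclre1a (0.74 to 0.80), and Tgfb1 with Gm42031, Nasp and Trim27 (0.78 to 0.85). Vegfa (Selenon, Srxn1 and Gm14005) and Vegfb (Fads1, Lztr1 and Rcan3) had no gene above 0.78.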

How the data were processed

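Single-cell libraries of CD45+ DAPI− soleus cells were measured on the 10x Genomics Chromium platform. The authors deposited counts of UMIs per gene and barcode, unscaled and per library, and the submitters' processing notes name Cell Ranger 3.1.0, Seurat and mm10. The members and gene lists were chosen with earlier results of these data known.

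Barcodes with over 10% mitochondrial UMIs or under 200 genes were left out, and doublets scored with scrublet (scanpy 1.11.5) were removed at 0.8% per 1000 barcodes. A cell took the class with the largest share of its markers detected, with at least 3 markers (4 for macrophages, 2 of them C1q genes). Cells with 3 or more markers of another lineage were set aside as mixed (648) and 2149 were ungated. These limits were set after marker detection was seen. Raw counts were summed per class and library and divided by their total (CPM). Sums of at least 20 cells were tested with edgeR 4.0.16 (quasi-likelihood test, TMM, R 4.3.3) with Benjamini-Hochberg adjustment over all genes tested. The SE given is the absolute log2 value divided by the square root of the test's F statistic. It is not a standard error taken from the fit. Class contrasts had library as a block, and age and treatment contrasts fitted both factors on all 6 libraries. Residual spread is between libraries that differ in age or treatment, and mice were pooled. Counts were also simulated with the same fixed dispersion for every gene, not the spread of the real libraries. Changes were placed only in genes with many UMIs. For resident against recruited macrophages (7957 genes), 95.0% of genes changed by 1 on the log2 scale and 100.0% of those changed by 2 were recovered. For reload against HU in recruited cells (6931 genes) it was 38.4% and 87.0%. Recovery of genes with few UMIs was not simulated.

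Counting intervals (exact Poisson, binomial or conditional, 95%) and the floor of 3 counts cover counting error only. Depth was 5782054 to 22749375 UMIs a library. Named genes were the 10 members, in each pathway list the 4 genes with most macrophage UMIs and the extremes each way between resident and recruited cells, and the 3 genes closest to each member, and other genes named were chosen after their values were seen. The list of 13 dissociation and heat shock genes was added after seeing the data, as were the motifs TATAAA and GGGCGG. Coordinates are 1-based from GENCODE vM21, which matched 99.6% of gene identifiers, and promoters are from RefSeq. Igf1, Pdgfa, Pdgfb and Grn overlap a gene on the other strand. Alternatives were total UMIs, DESeq2 1.42.0, no filter on low counts, mitochondrial limits of 5% and 20%, no doublet removal, cells thinned to 2000 UMIs, a stricter gate, another split of macrophages, leaving out each library and, added after seeing the data, leaving out barcodes shared between libraries. Sums and intervals were computed in Python 3.11.15 with scipy 1.17.1.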

Additional observations from a re-analysis of the deposited data

Results flagged for a closer look

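In 5 members the counting intervals of a ratio in macrophages lay on opposite sides of 0 in different treatments or ages, and these differences were not tested, since each ratio sets 1 library against 1 library. Old over young Gdf3 was at 1.58 on the log2 scale in control and 0.39 at reload, and at most -2.36 after HU, where the old library had 0 UMIs. Gdf3 UMIs lay in few cells (10 old and 10 young in control, 5 young after HU), and the shares of cells overlapped between ages in each treatment. Vegfa was at -1.80 in control and 3.45 after HU, the latter on 14 UMIs against 1. Igfbp4 was at 0.58 in control, -0.85 after HU and 0.28 at reload. Grn was at 0.26 in control, -0.55 after HU and -0.27 at reload. HU over control Tgfb1 was at 0.25 in young and -0.32 in old macrophages, a pair of treatments that cannot be told apart from the sequencing run.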

How the results depend on the processing

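The 8 members called between resident and recruited macrophages were 7 to 8 in every alternative that leaves out a library, and the count of members called against monocytes (7 to 8), dendritic cells (6 to 8) and T cells (9 to 10) moved as little; the last 2 counts include Gdf3, which had no UMI in dendritic cells or T cells, and the comparison with dendritic cells was not run with thinned cells, since 1 library alone kept 20 of them. The calls of reload against HU were less stable. In all macrophages 3 members were called, 5 without the filter on low counts and 0 to 5 with a library left out. In recruited cells 0 were called, 1 with total UMIs, 1 with DESeq2, 5 without the filter, 1 with Ccr2 set against Lyve1 or Vsig4 as the split, and 0 to 4 with a library left out. In resident cells it was 0, with 1 without the filter and 0 to 4 with a library left out, and for the difference between kinds 0, with 1 without the filter and 0 to 2 with a library left out. Old against young gave 0 members in every alternative but 1, the unfiltered resident cells with 1 (Hbegf), and 0 with a treatment left out. Members with their highest median in macrophages were 1 (Grn), and 2 with the stricter gate (Grn and Pdgfa). Gdf3, old over young at reload, turned from 0.39 to -0.15 with cells thinned to 2000 UMIs. No other called value changed sign. The causes were not tested.

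Counts of all genes called moved by over 1.5 times: 1656 between resident and recruited cells (981 to 2011 over the alternatives), 884 for reload against HU (28 to 2014), 33 in recruited (0 to 674) and 167 in resident cells (9 to 1259), 14 for their difference (3 to 129), and 0 for age (0 to 17, with 0 to 19 in recruited and 0 to 155 in resident cells). Against monocytes it was 3364 (1939 to 3719), dendritic cells 4096 (2554 to 4462) and T cells 5251 (3315 to 5935). Class contrasts had library as a block and age and treatment contrasts had the other factor, and no fit by replicate number could be made, since each group has 1 library. Vegfb and Gdf3 have few UMIs, and depth limits them most.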
